A study of Homo sapiens with 18 samples.

Results

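PIP5K1C and FBN3 are genes on the minus strand of chromosome 19 whose RNA carried peaks of the RNA-binding protein QKI in human embryonic stem cells. Every listed QKI peak that overlapped either gene by at least 1 nt on the minus strand (hg19; PIP5K1C at 3630179 to 3700477, FBN3 at 8130286 to 8212385) was taken from all 12 deposited peak lists. This gave 387 of the 879442 clusters in the lists of single libraries, 165 of the 77088 passing peaks and 36 of the 10301 reproducible peaks. A cluster is any stretch of RNA in the list of a single library, whatever its enrichment. The smallest log2 fold over input listed was 0.000654. A passing peak is a cluster with at least 4-fold enrichment over input and a p of 0.001 or less, both taken from the authors' columns. A reproducible peak is an entry of the authors' merged list of a day. The genes were chosen because these same lists showed few peaks at day 8, so differences between day 8 and the earlier days are given as a description, with no test. Values at day 4 and day 0 come from the same choice and are also untested.

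QKI belongs to the STAR family of RNA-binding proteins, recognises ACUAAY-like sequences and acts on splicing, RNA stability and localisation, also in muscle and heart. PIP5K1C encodes the gamma form of type I phosphatidylinositol 4-phosphate 5-kinase, which makes the membrane lipid PI(4,5)P2. It binds talin at focal adhesions and also serves synaptic vesicle traffic, and its transcripts are alternatively spliced in the tail that contacts talin. FBN3 encodes fibrillin-3, a glycoprotein of extracellular microfibrils that is mostly made in fetal tissue. The fibrillins form scaffolds that hold growth factors of the TGF-beta family in the matrix.

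The data were eCLIP libraries, in which ultraviolet light links a protein to RNA in living cells and the RNA fragments it holds are sequenced, along with an input library cut from the same size range. All came from HUES6, an established human embryonic stem cell line, with an anti-QKI antibody. The groups were day 0 (pluripotent cells), day 4 (cells labelled cardiac progenitors, after CHIR and BMP4 and then C59) and day 8 (cells labelled cardiomyocytes, taken once beating was seen), with 3 immunoprecipitated (IP) libraries each. The 9 inputs enter only through the authors' folds. The labels name no purification of the differentiated cells. Nothing says that libraries of 1 day are separate cultures, and their spread may therefore be technical. Cell type markers could not be placed on hg19 here, so the day labels were not checked against them. Read depth is unknown. Passing peaks numbered 12695 to 15508 per library at day 0, 3030 to 7775 at day 4 and 3726 to 10966 at day 8, out of 102085 to 187962, 63319 to 99552 and 52462 to 62897 clusters. Day 4 replicate 1 had the fewest passing peaks. Fewer transcripts per cell, fewer cells with the transcript and less QKI per transcript cannot be told apart in these bulk lists.

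PIP5K1C carried most of its QKI peaks at day 0 and few at day 8. Its passing peaks numbered 19, 22 and 19 in the day 0 libraries, 5, 9 and 9 at day 4 and 1, 0 and 4 at day 8. No 2 days overlapped in these numbers. The whole list of every day 0 library also held more passing peaks than any list of day 4 or day 8. How many other loci show such a separation was not counted. The PIP5K1C means were 20 ± 1.73, 7.67 ± 2.31 and 1.67 ± 2.08 (SD, n = 3 per day). Day 8 replicate 3 held 4 of the 5 peaks of its day, and without it the day 8 mean was 0.5 peaks. Without replicate 2 it was 2.5. The peaks covered 1132 to 1176 nt of the gene at day 0, 385 to 594 nt at day 4 and 0 to 290 nt at day 8.

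Set beside the length of each library's list, PIP5K1C held its place at day 4 and not at day 8. Per 10000 passing peaks of the library, the gene held 12.3, 17.3 and 14.5 at day 0, 16.5, 11.6 and 22.5 at day 4 and 1.58, 0 and 3.65 at day 8. The day 4 values spanned those of day 0, and all day 8 values lay below both. The 0 in day 8 replicate 2, out of 3726 passing peaks, allows a share of up to 8.05 per 10000 by the limit of 3 counts. The upper end of its exact two-sided 95% interval, drawn in the plot of peaks by library, was 9.90. Mean shares were 14.7 ± 2.54, 16.9 ± 5.47 and 1.74 ± 1.83, so the day 8 mean was 0.119 times that of day 0 and 0.103 times that of day 4. These ratios rest on few peaks: without day 8 replicate 3 they were 0.0538 and 0.0469, and without replicate 2 they were 0.178 and 0.155. With the libraries of a day pooled they were 0.164 (exact 95% interval 0.0513 to 0.404) and 0.153 (0.0455 to 0.412). These intervals treat peaks as independent and leave out the spread between libraries. The genes were chosen for few peaks at day 8, so the intervals test nothing. The relation of day 4 to day 0 depended on the scaling. With the 3030 strongest peaks of every library, the PIP5K1C means were 12 ± 1.73 (day 0), 5.33 ± 2.52 (day 4) and 0 (day 8).

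FBN3 followed the same order of days. Its passing peaks numbered 23, 18 and 17 at day 0, 5, 5 and 6 at day 4, and 1 in each day 8 library. Again no 2 days overlapped, in lists that held the most passing peaks at day 0. Here too, other loci with such a separation were not counted, and nothing is read from it. The FBN3 means were 19.3 ± 3.21, 5.33 ± 0.577 and 1 ± 0. Covered length was 1052 to 1399 nt at day 0, 217 to 520 nt at day 4 and 38 to 78 nt at day 8. Per 10000 passing peaks, FBN3 held 14.8, 14.2 and 13.01 at day 0, 16.5, 6.43 and 15.0 at day 4 and 1.58, 2.68 and 0.912 at day 8. Here the day 4 libraries lay on both sides of day 0, with replicate 2 lowest, and day 8 was again below both. Mean shares were 14.0 ± 0.924, 12.6 ± 5.43 and 1.73 ± 0.895, which puts the day 8 mean at 0.123 times that of day 0 and 0.136 times that of day 4. Leaving out 1 library gave 0.0890 to 0.152 and 0.0986 to 0.169. The pooled ratios were 0.102 (exact 95% interval 0.0204 to 0.312) and 0.132 (0.0247 to 0.462). These intervals have the limits given for PIP5K1C and test nothing either. Among the 3030 strongest peaks of every library FBN3 had 12.3 ± 2.89 at day 0, 5.33 ± 0.577 at day 4 and 0.667 ± 0.577 at day 8.

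**Figure D1:**
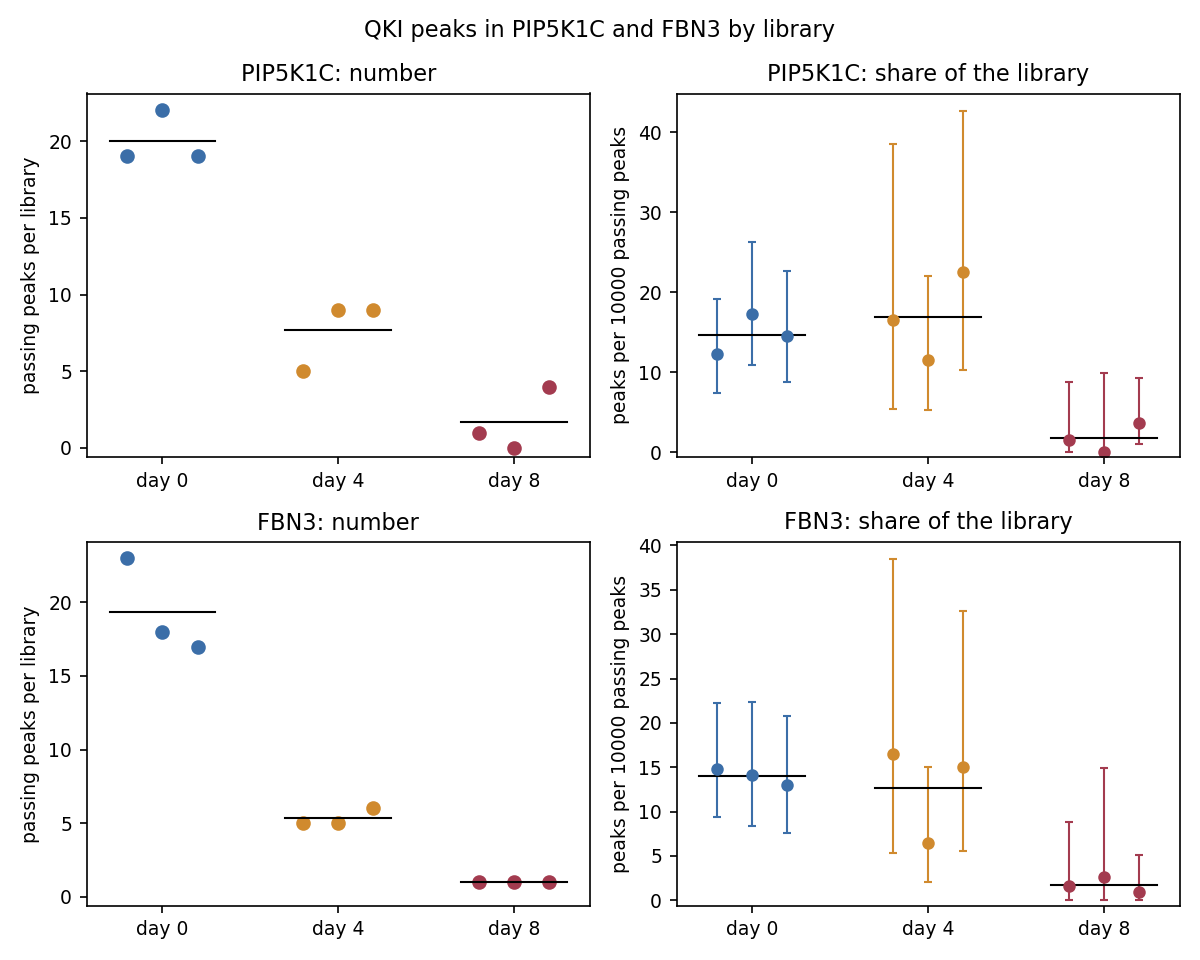
Passing QKI peaks in PIP5K1C (top) and FBN3 (bottom) at day 0, day 4 and day 8. Left panels give the number per library and right panels the number per 10000 passing peaks of the library, with exact 95% intervals that cover counting error only; each point is 1 library and black lines are means of 3. Numbers are ordered day 0, day 4, day 8 without overlap, while day 4 and day 0 overlap in share. The whole lists of day 0 also held the most passing peaks, and other loci with such an order were not counted.

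The authors' reproducible lists held 16 peaks of PIP5K1C and 16 of FBN3 at day 0, 2 and 2 at day 4, and none of either gene at day 8. Each merged list combines its 3 libraries and stands alone, without replicates. Out of 7778, 947 and 1576 peaks listed, this was 20.6 per 10000 for each gene at day 0 and 21.1 per 10000 at day 4. None of the 16 day 0 peaks of either gene overlapped a day 8 reproducible peak, in a list where 83.0% of all day 0 peaks had no such overlap. Neither of the 2 day 4 peaks of each gene did, where 32.3% of all day 4 peaks had none. With day 4, 14 of the 16 day 0 peaks of PIP5K1C and 13 of those of FBN3 had no overlap, beside 84.6% of all day 0 peaks. Reproducible peaks of all days joined within 20 kb on a strand formed loci, and 71 loci held at least 10 at day 0. Of these 71, 28 (39.4%) held none at day 8, PIP5K1C and FBN3 among them.

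Most day 0 reproducible peaks of both genes lay above the middle of their list. Their median log2 fold over input was 5.71 in PIP5K1C and 6.10 in FBN3, beside 4.58 over the whole day 0 list. The highest were 6.72 in PIP5K1C (3648822 to 3648899, rank 673 of 7778) and 7.38 in FBN3 (8153708 to 8153792, rank 407). The lowest was an FBN3 peak at 2.18 (8151113 to 8151205, rank 7725), so the gene held peaks from near both ends of the list. Median widths of 65.5 and 76.5 nt lay on either side of the list's 73 nt.

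In both genes most passing QKI peaks sat in a small part of the gene, far from the gene start. The genes are 70299 and 82100 nt long in the intervals used, and distances here run along the RNA from the upper end of each interval. The intervals were not checked against an hg19 annotation, so gene ends, distances and percentages of the gene hold for the intervals as given. The passing peaks of PIP5K1C lay in stretches that began 46963 to 57098 nt from the start, and 86 of 88, summed over the libraries, had their centre in a window of 5 kb (3648603 to 3653602), which is 7.11% of the gene. Those of FBN3 began 50330 to 62017 nt from the start, with 70 of 77 in a window of 5 kb (8150249 to 8155248), or 6.09% of the gene. The windows were placed where the peaks were densest, so these shares describe the peaks. The reproducible peaks of PIP5K1C formed a locus of 3056 nt and those of FBN3 one of 10938 nt. The median over all 155 loci with at least 10 reproducible peaks was 8223 nt. Of these loci, 56 were no longer than that of PIP5K1C and 91 no longer than that of FBN3. The FBN3 locus was thus longer than the median. Whether these stretches are introns or exons was not assigned here, because the annotation at hand was of another build. For the same reason no sequence under the peaks is shown.

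**Figure D2:**
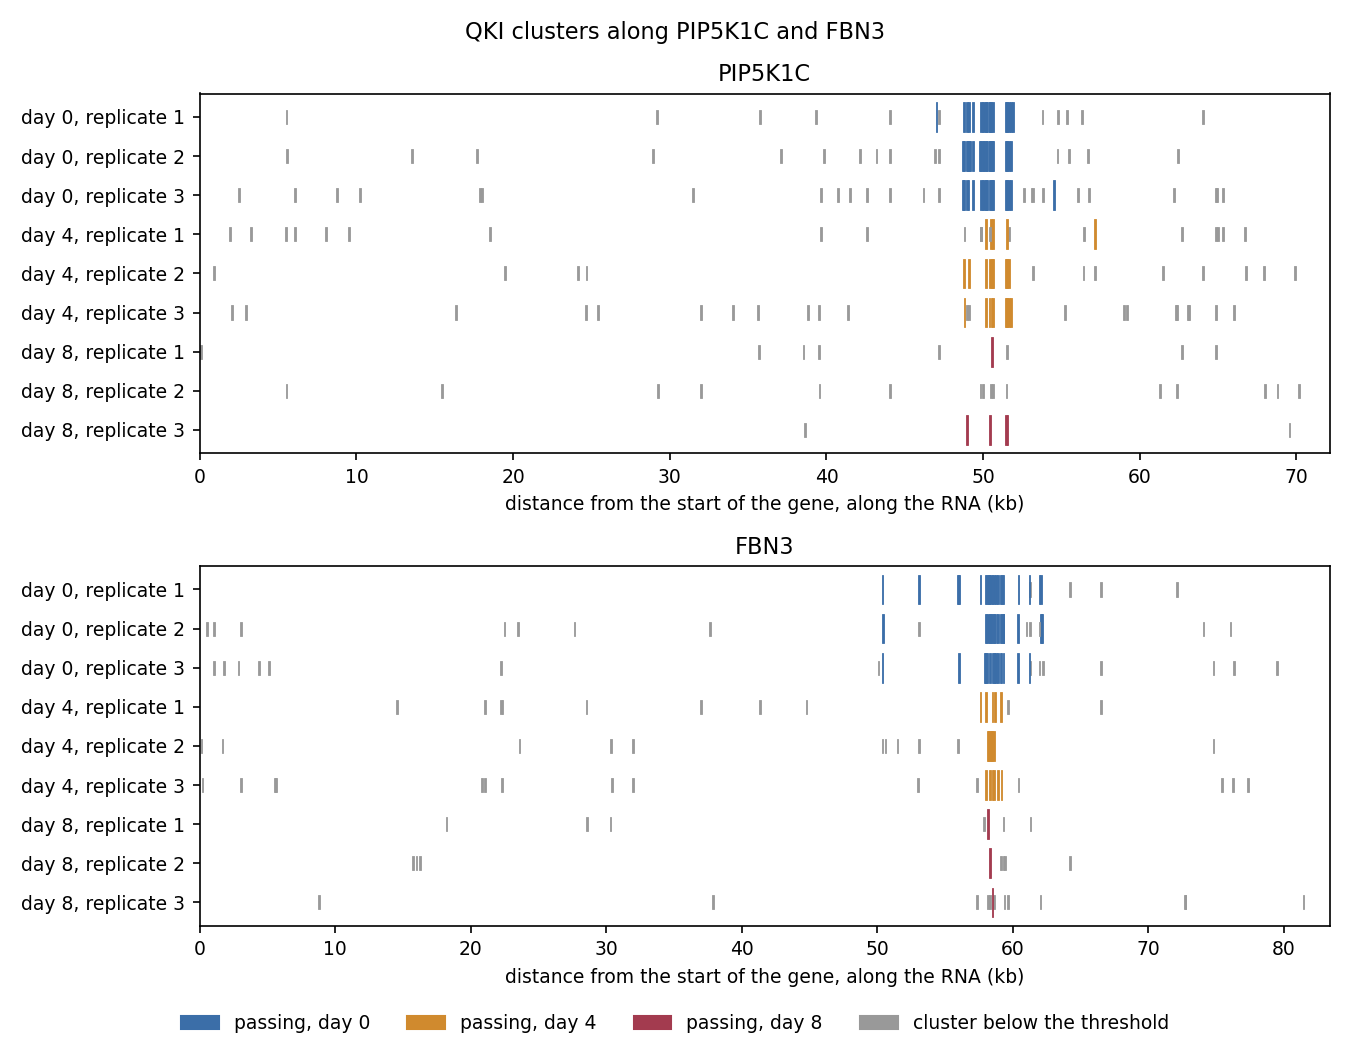
All QKI clusters along PIP5K1C (top) and FBN3 (bottom), with distance from the gene start in kb on the x axis and 1 line per library. Tall coloured marks are passing peaks and short grey marks are clusters below the threshold; narrow clusters are drawn wider than scale so that they can be seen. Most passing peaks gather in a narrow band of each gene, while grey marks are spread over the genes at all days.

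Passing peaks of all libraries that overlapped or touched were joined into footprints, 18 in PIP5K1C and 16 in FBN3. In PIP5K1C, 17 footprints passed in at least 1 day 0 library, 8 at day 4 and 4 at day 8. In FBN3 these numbers were 16, 5 and 2. Positions seen late were nearly all positions of day 0. All 4 day 8 footprints of PIP5K1C and both of FBN3 had passed in 3 of 3 day 0 libraries and in at least 1 day 4 library. The exception at day 4 was a PIP5K1C footprint at 3643296 to 3643379, which passed only in day 4 replicate 1 with a log2 fold of 2.44. Most peaks joined into these footprints were of day 0, so the overlap of later days with day 0 follows in part from the joining. The share over all regions of the genome was not computed, and nothing is read from this overlap.

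The footprint of PIP5K1C with the most libraries (7) lay at 3648814 to 3649080, 51397 nt from the gene start and 267 nt wide. Its highest log2 fold was 8.05, 5.85 and 5.98 in the day 0 libraries, 5.02, 5.63 and 4.90 at day 4, and 4.27 in day 8 replicate 3. In day 8 replicates 1 and 2 it held clusters of 3.50 and 2.88 that missed the p threshold. It was thus occupied by a listed cluster in all 9 libraries. Each fold is relative to that library's own input, so folds of different libraries are given side by side and not compared.

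The second, at 3649854 to 3650024 (171 nt), also passed in 7 libraries, with 7.71, 6.43 and 5.93 at day 0, 5.61, 5.31 and 6.14 at day 4, and 3.50 in day 8 replicate 1. Day 8 replicate 2 had a cluster of 3.88 there that did not pass, and replicate 3 had none. A footprint of 92 nt at 3650042 to 3650133 passed in 3 day 0 libraries (7.10, 7.16 and 5.37), in day 4 replicates 2 and 3 (4.42 and 3.58) and in day 8 replicate 3 (3.10). These neighbouring footprints were thus seen at day 8 in different libraries.

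The footprint at 3650238 to 3650361 passed in all 6 libraries of day 0 (5.54, 5.70 and 6.10) and day 4 (5.29, 5.72 and 4.50), and no cluster of any fold was listed there at day 8. It was the only PIP5K1C footprint with 3 of 3 libraries at day 4 and none at day 8. The last day 8 position, 3651380 to 3651592, passed at day 0 (5.61, 4.29 and 3.96), in day 4 replicate 2 (3.60) and in day 8 replicate 3 (3.27). The next footprint, 3651631 to 3651762, had 7.85, 5.54 and 4.24 at day 0, 4.18 and 3.44 in day 4 replicates 2 and 3, and no cluster at day 8. Footprints at 3648692 to 3648772 (4.74, 4.29 and 3.01 at day 0) and 3650648 to 3650692 (5.08, 5.10 and 5.93) passed in 1 and 0 day 4 libraries. The second of these held a cluster of 4.14 in day 8 replicate 2 with a −log10 p of 2.83, just short of the threshold of 3. Of the other 10 footprints, 3 passed in all day 0 libraries, 1 in 2 of them and 6 in a single library of the series.

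FBN3 had its broadest footprint at 8153693 to 8154195, 503 nt wide and 58190 nt from the gene start. It passed in 8 of 9 libraries. Its highest passing log2 fold was 8.17, 6.39 and 6.75 at day 0, 5.79, 8.04 and 6.83 at day 4, and 3.72 and 3.49 in day 8 replicates 2 and 3. Both day 4 reproducible peaks of FBN3 lay inside it (8153702 to 8153825 and 8153846 to 8153938). This was the only footprint of either gene that passed in 2 day 8 libraries.

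Its neighbour at 8154201 to 8154449 (249 nt) passed in 7 libraries, with 6.89, 7.18 and 5.53 at day 0, 5.02, 4.72 and 3.38 at day 4, and 4.91 in day 8 replicate 1. Together these footprints took in every passing FBN3 peak of day 8. The footprints on the far side, 8153150 to 8153336 and 8153451 to 8153532, had 7.71, 5.74 and 5.58 and 8.37, 6.26 and 4.75 at day 0, passed in 2 and 1 day 4 libraries and in none at day 8. The next, 8153554 to 8153655, was as strong at day 0 (8.37, 7.01 and 5.98), yet neither day 4 nor day 8 had a cluster of any fold listed there.

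The remaining 3 FBN3 footprints that passed in all day 0 libraries passed in no library of day 4 or day 8. At 8153064 to 8153127 the log2 folds were 6.51, 6.30 and 4.68, and day 8 replicates 1 and 2 held clusters of 4.23 and 2.29 that missed the p threshold. A footprint at 8161991 to 8162055 stood apart, 50330 nt from the gene start, with 5.57, 3.29 and 4.82. The weakest, 8151957 to 8152069, had 2.26, 2.35 and 2.97. The other 8 footprints passed in 1 or 2 libraries.

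**Figure D3:**
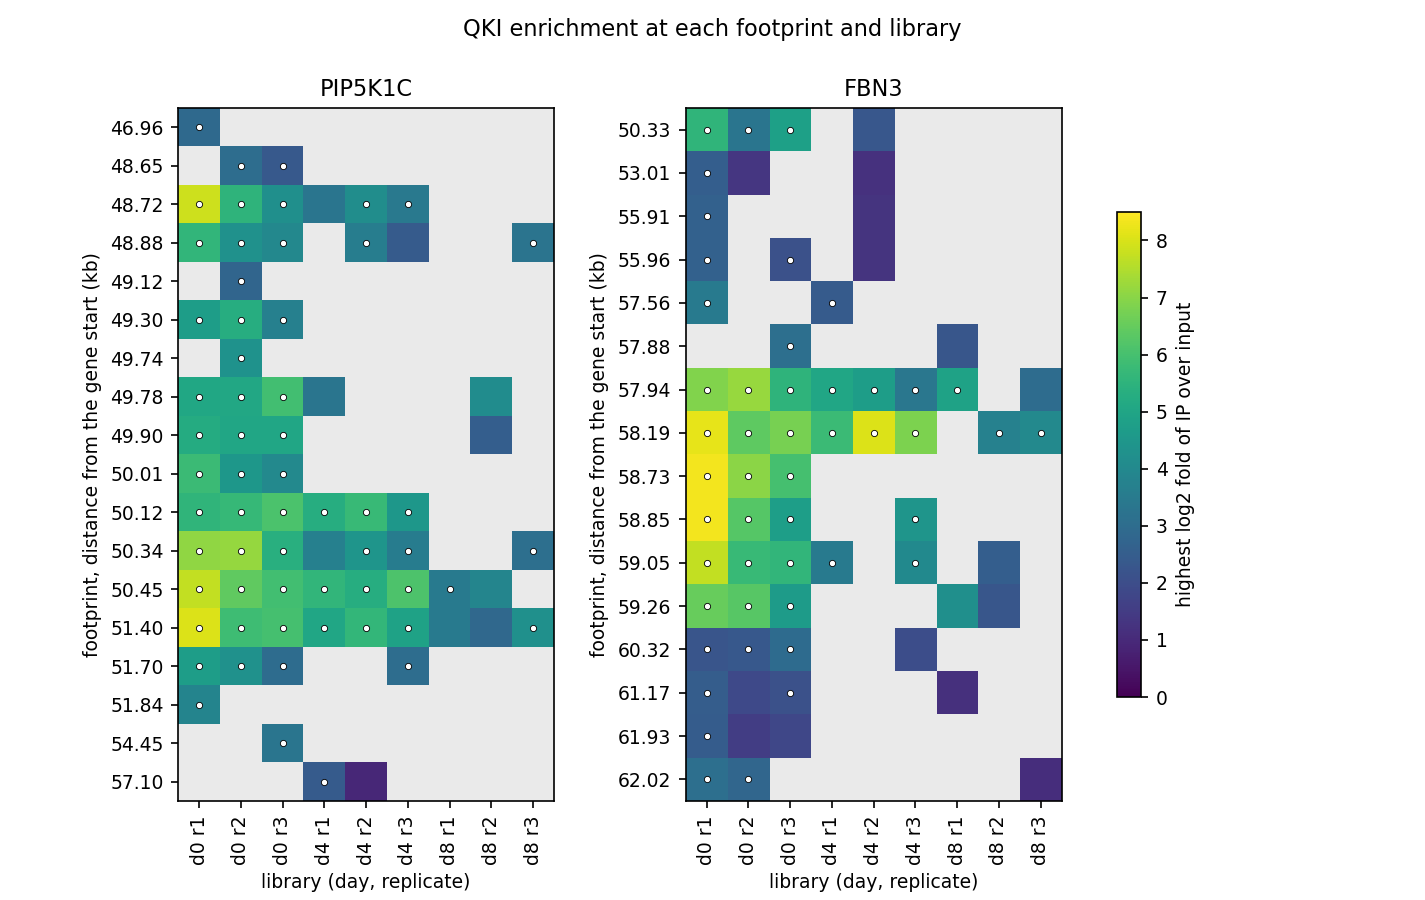
Highest log2 fold of IP over input at each footprint (rows, by distance from the gene start in kb) in each library (columns) for PIP5K1C (left) and FBN3 (right). Pale grey marks no listed cluster, and white dots with a black rim mark a passing peak. Dots are most frequent in the day 0 columns; in the day 8 columns 4 rows of PIP5K1C and 2 rows of FBN3 have any.

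Among footprints that passed in 3 of 3 libraries of a day, PIP5K1C had 11 at day 0 and 3 at day 4, and FBN3 had 8 and 2. At day 8, 7 of the 11 and 6 of the 8 day 0 footprints passed in no library, beside 46.6% of all 5954 such regions in the genome. Of the day 4 footprints, 1 of 3 in PIP5K1C and 0 of 2 in FBN3 passed in no day 8 library, beside 5.71% of 999. At day 4, 4 of the 11 and 4 of the 8 day 0 footprints passed in no library, beside 44.9% of 5954. The genes were chosen on this pattern, so nothing is read from these shares.

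**Figure D4:**
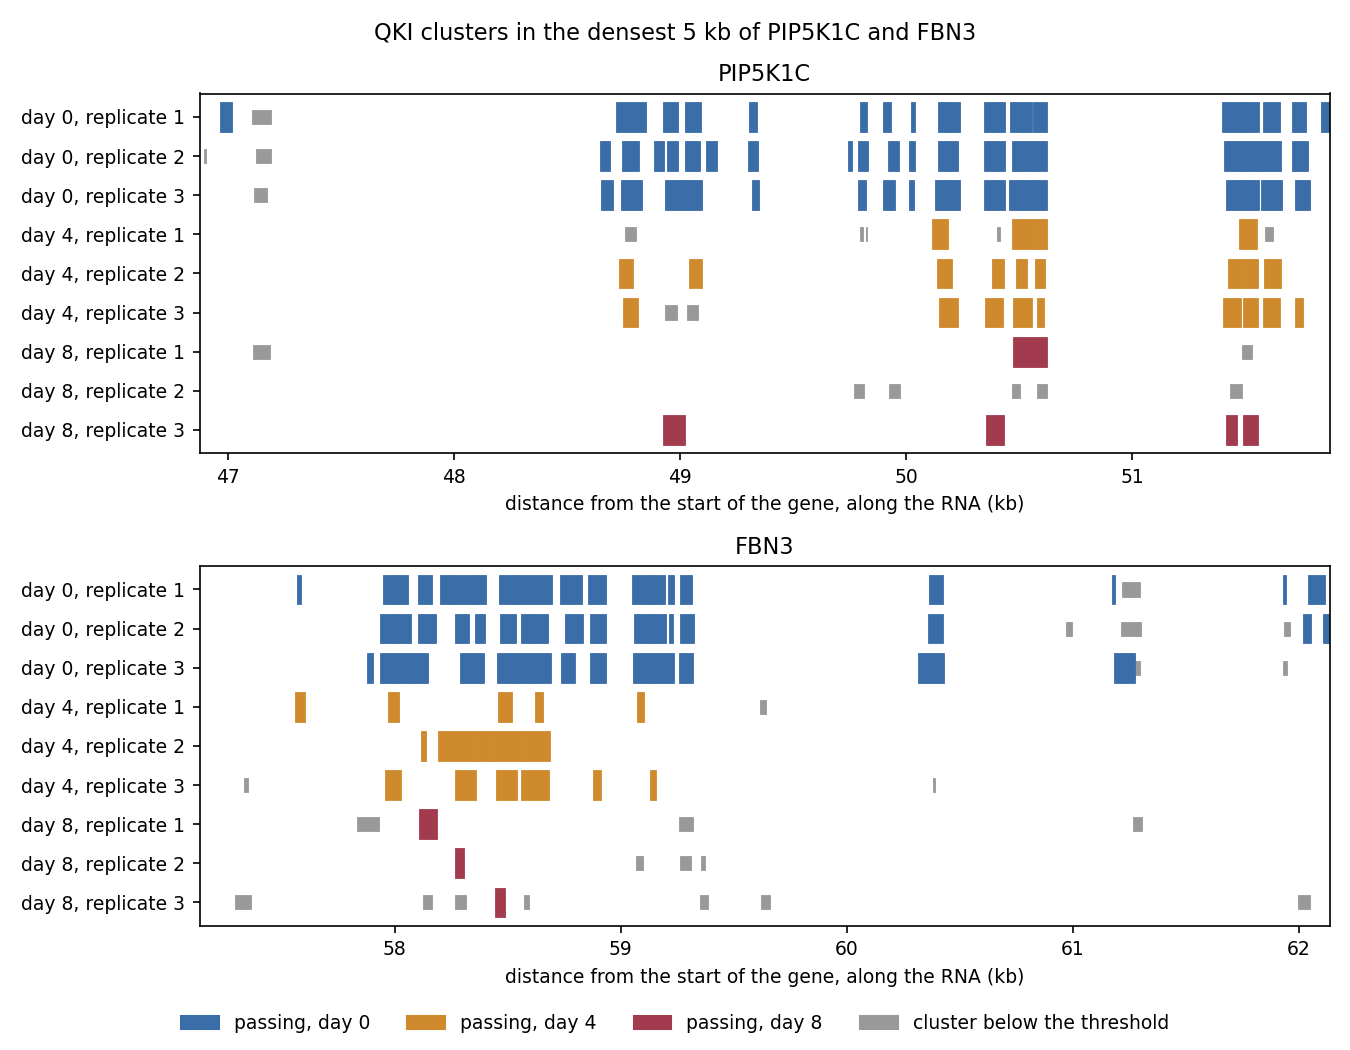
The densest 5 kb of PIP5K1C (top) and FBN3 (bottom), drawn to scale, with distance from the gene start in kb on the x axis and 1 line per library. Tall coloured blocks are passing peaks and short grey blocks are clusters below the threshold. Coloured day 8 blocks fall on positions with coloured day 0 blocks, and some grey day 8 blocks sit at other day 0 positions.

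Some signal below the threshold was still listed at day 8 in the dense stretches. In the PIP5K1C window the day 8 libraries held 12 clusters, of which 5 passed. Of the other 7, 6 were at least 4-fold over input and missed the p threshold. At day 0 the window held 63 clusters, of which 59 passed, and none of the other 4 reached 4-fold. At day 4, 22 of 29 passed and all of the other 7 reached 4-fold. In the FBN3 window 51 of 57 clusters passed at day 0, 16 of 19 at day 4 and 3 of 16 at day 8, and 1, 3 and 7 of those that did not pass reached 4-fold. Over all clusters of the lists, 31.3% at day 0, 37.0% at day 4 and 42.3% at day 8 reached 4-fold without passing. The windows were placed by the passing peaks, most of which are of day 0, so the near-complete passing at day 0 follows from that choice. A p of this kind depends on the number of reads, which is unknown.

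Peaks that passed at day 8 were also close to the p threshold. The highest −log10 p anywhere in PIP5K1C was 56.4, 41.1 and 32.6 in the day 0 libraries, 8.34, 9.01 and 13.5 at day 4, and 4.03, 2.83 and 3.59 at day 8. In FBN3 it was 400 (the cap of the scale), 51.4 and 67.3 at day 0, 9.54, 48.9 and 22.4 at day 4, and 4.56, 3.84 and 3.02 at day 8. With p at or below 1e-05 no day 8 peak was left in either gene. The share of all day 8 passing peaks left at this setting was not computed, so nothing is read from this.

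Clusters elsewhere in the genes were listed at all 3 days. Outside the windows, PIP5K1C held 47 clusters over the day 0 libraries, 48 at day 4 and 19 at day 8, nearly all below the threshold. Relative to all clusters of these libraries this was 1, 2.06 and 1.08 per 10000. The day 8 libraries differed, with 1.14, 1.80 and 0.318, and without replicate 2 the day 8 value was 0.693. Inside the window the values were 1.34, 1.25 and 0.680. FBN3 had 32, 33 and 12 clusters outside its window, or 0.681, 1.42 and 0.680 per 10000, and 1.21, 0.816 and 0.906 inside it. Per library, the FBN3 values outside its window were 0.611 to 0.745 at day 0, 1.31 to 1.57 at day 4 and 0.572 to 0.795 at day 8. Those of PIP5K1C were 0.722 to 1.28 at day 0 and 1.71 to 2.53 at day 4. In both genes the ranges of day 8 and day 0 overlapped. Whether they reflect the amount of RNA of the genes was not tested.

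**Figure D5:**
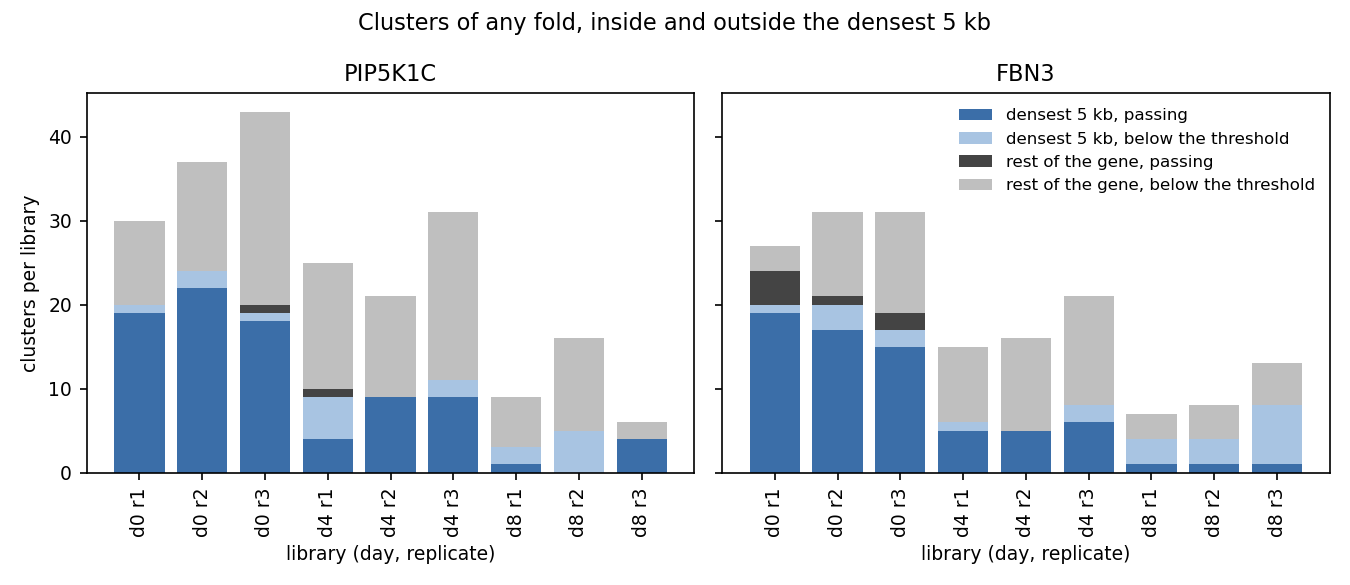
Clusters of any fold per library in PIP5K1C (left) and FBN3 (right), stacked by position (densest 5 kb or rest of the gene) and by whether they passed. Each bar is 1 library, named by day (d) and replicate (r). The dark blue part is 15 to 22 clusters at day 0 and 0 to 4 at day 8, while below-threshold clusters in the rest of the gene are listed at every day.

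In the RefSeq table of GRCh38, used for names only, no other gene overlaps PIP5K1C or FBN3. The nearest protein-coding genes are CACTIN and TJP3 beside PIP5K1C, and CCL25 and CERS4 beside FBN3. The surroundings of both genes were counted in the same lists, with no density over the genome to set them against. No cluster of any fold lay on the plus strand of either interval. In the 100 kb on each side of PIP5K1C, on the minus strand, no library had a passing peak, while 45, 21 and 6 clusters were listed over the libraries of day 0, 4 and 8. Around FBN3 there were 7, 0 and 1 passing peaks and 75, 46 and 11 clusters. Flanking clusters at day 8 were thus few around both genes, and the cluster lists of day 8 were the shortest. On the rest of the minus strand of chromosome 19, leaving out only PIP5K1C, libraries held 165 ± 15.2, 160 ± 84.9 and 115 ± 35.2 per 10000 passing peaks at day 0, 4 and 8. The day 8 mean of that strand was thus also below that of day 0, by less than in the 2 genes. Its day 8 libraries (134, 137 and 74.8) all lay below those of day 0 (182, 154 and 160) and overlapped those of day 4. The 2 genes were chosen for few peaks at day 8, so nothing is read from their larger fall.

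PIP5K1C and FBN3 had like profiles across the 9 libraries, with a Pearson r of 0.82 for the log2 share of passing peaks. The libraries and their totals are shared by all profiles, both genes were chosen for the same pattern, and no p is given. Of 154 other loci with at least 10 reproducible peaks, the profile most like that of PIP5K1C was on the plus strand of chromosome 4 (93645655 to 93711539, r = 0.89), with 35, 35 and 35 passing peaks at day 0, 2, 9 and 5 at day 4 and 0, 0 and 1 at day 8. Minus-strand chromosome 22 (42717384 to 42723860, r = 0.86) and plus-strand chromosome 3 (183453489 to 183506579, r = 0.82) followed, and the FBN3 locus itself came next. For FBN3 the first were plus-strand chromosome 22 (27065918 to 27070593, r = 0.94), minus-strand chromosome 5 (177874840 to 177877278, r = 0.93) and minus-strand chromosome 6 (161685574 to 161687087, r = 0.92). The first of these is a far denser locus, with 230, 240 and 236 passing peaks at day 0 and 16, 19 and 16 at day 8. The PIP5K1C locus ranked only 15 of 154 for FBN3 (r = 0.80). The median r over the 154 loci was -0.06 for PIP5K1C and 0.24 for FBN3.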

How the data were processed

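Per the file headers, the authors deposited input-normalized QKI peaks on hg19, with 1 list per IP library and 1 merged list per day (4-fold, 3-way IDR). Each peak has the authors' log2 fold of IP over input and the −log10 p of that enrichment, deposited with a cap at 400. Tools named in the submitters' processing notes are cutadapt, STAR and SAMtools; versions and the peak caller are not given in the sources used here. Read depth is unknown, so precision is given as the spread over 3 libraries and as exact (Clopper-Pearson) 95% intervals, which cover counting error only.

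Passing peaks (at least 4-fold, p at or below 0.001) were counted by any overlap with the gene intervals on the minus strand. Footprints, loci (within 20 kb, at least 10 reproducible peaks) and log2 shares with a pseudocount of 0.5 were computed with Python 3.11.15, pandas 2.3.3 and NumPy 2.4.6, and the scripts were tested on simulated peaks. Groups came from sample titles. The members, lists and rules were chosen with earlier results of these data known. Footprints were named by number of libraries and then fold, 8 per gene, plus all with a day 8 peak, and like loci by Pearson r, 3 per gene. The 5 kb window was chosen after the data were seen. The planned test over genes of phosphoinositide kinases and microfibrils, and the cell type markers, were not analysed here, because the gene table was of GRCh38.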

Additional observations from a re-analysis of the deposited data

How the results depend on the processing

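Of 86 values recomputed under another setting with all libraries kept, 60 moved by less than the spread between libraries (or, for counts, by less than 1.5 times). The order of the mean passing peaks per library, day 0 above day 4 above day 8, held in both genes under all other settings. Shares did not keep the order of day 0 and day 4. In PIP5K1C the day 4 mean share was already above that of day 0 in the main setting (16.9 and 14.7). In FBN3 it was above at 8-fold (15.1 and 13.1) and at p at or below 1e-05. Requiring 8-fold left 15.3 passing peaks in FBN3 at day 0. With p at or below 1e-05, passing peaks averaged 5 in PIP5K1C and 4.67 in FBN3 at day 4 and 0 in FBN3 at day 8; shares per 10000 became 22.9 and 23.3 in PIP5K1C at days 0 and 4, and 19.8, 22.4 and 0 in FBN3 at days 0, 4 and 8. With equal numbers of peaks (3030), PIP5K1C averaged 12 and 5.33 peaks at days 0 and 4 and FBN3 12.3 and 0.667 at days 0 and 8; the shares at day 0 were 39.6 and 40.7. Joining touching peaks gave 15.3 in PIP5K1C and 15 in FBN3 at day 0 (share 12.3) and 4.33 in FBN3 at day 4. Footprints of day 0 or day 4 with no passing peak at day 8, 14 in each gene, numbered 7 in PIP5K1C and 9 in FBN3 when merged within 50 nt, and 9 in FBN3 when any day 8 cluster counted as presence. A pass in 1 library of day 0 or day 4 was enough here. In PIP5K1C 6 footprints and in FBN3 4 passed in 1 library only. The share over all regions by this definition was not computed, so nothing is read from these counts. Over all regions, requiring 2 or 3 of 3 libraries put 55.9% of day 0 and 16.8% of day 4 regions at no passing day 8 library. A window of 2 kb, added after the data were seen, held 71.6% of the PIP5K1C and 79.2% of the FBN3 passing peaks.

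With 1 library of a day left out in turn, PIP5K1C averaged 19 to 20.5 passing peaks at day 0, 7 to 9 at day 4 and 0.5 to 2.5 at day 8, with shares of 13.4 to 15.9, 14.0 to 19.5 and 0.791 to 2.61 per 10000. FBN3 averaged 17.5 to 20.5, 5 to 5.5 and 1, with shares of 13.6 to 14.5, 10.7 to 15.8 and 1.25 to 2.13. Footprints without a day 8 peak numbered 12 to 17 in PIP5K1C and 12 to 15 in FBN3. The low day 8 value of PIP5K1C was reached without replicate 3. No paired analysis was possible because no test was made of these values, on which the genes were chosen; differences within a replicate number could be formed and were not used. The planned fit over other genes, with its alternatives, was not run. The unknown read depth limits how day 8 clusters short of the p threshold can be read.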
